A study of Mus musculus with 38 samples.

Results

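H3K4me1, the monomethylation of lysine 4 on histone H3, was compared between IκBα knockout (IκBα-KO) and wild-type (IκBα-WT) mouse embryonic stem cells (mESCs). The comparison rested on the 6 ChIP-seq libraries whose titles named this mark, 3 of each genotype, of the 38 samples of the series. All 6 came from the ES-E14TG2a line at the 0 h time point, grown in serum with leukemia inhibitory factor (LIF). The labels gave the genotypes as IkappaBalpha+/+ (treatment: wildtype) and IkappaBalpha-/- (treatment: knock-out). The study's methods describe CRISPR-Cas9 with a pair of guide RNAs against the first exon of Nfkbia, the gene of IκBα, which holds NF-κB in the cytoplasm, and clones of each genotype. The labels do not tie a library to a clone, so the p-values below measure the spread between these libraries. The labels name 1 antibody for both H3K4me1 and H3K27ac, while the study's methods list a different antibody for each.

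H3K4me1 marks enhancers and the flanks of promoters, and is laid down mainly by the methyltransferases KMT2C and KMT2D. At the 5′ end of an active gene lysine 4 carries the trimethylated form, H3K4me3, and H3K4me1 typically shows a valley there with a shoulder on either side. At enhancers, H3K4me1 alone is read as a primed or poised state, and H3K4me1 with H3K27ac as an active one.

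The deposited lists gave, for each library, the islands (stretches of enriched 200 bp windows) with their ChIP and input read counts. On chromosomes 1 to 19 there were 71984, 71121 and 71499 islands in the IκBα-WT libraries and 69198, 72298 and 75042 in the IκBα-KO libraries, 431142 in all. These held 34485130 to 35688997 ChIP reads per library, at 73.2 to 74.2 ChIP reads and 30.9 to 31.2 input reads per kb of covered sequence. Each genotype had 1 input. In the IκBα-KO input, read density was shifted in 3 segments, chromosome 2 from 165 to 171 Mb, chromosome 8 from 40 to 129 Mb and chromosome 12 from 103 to 119 Mb, by a median log2 of 0.50, 0.48 and −1.01 over the tested regions. H3K4me1 moved with it there, by 0.43, 0.43 and −0.78, and genes in these segments are marked as such below. These medians rest on 40, 278 and 4 tested regions. Of 7 markers of mESCs, 5 had their 5′ end in an H3K4me1 region (Pou5f1, Nanog, Esrrb, Tdgf1 and Dppa4), and Sox2 and Zfp42 did not. The same was true of 6 of 8 fibroblast, 2 of 5 hepatocyte and 4 of 5 lymphocyte markers, so islands at 5′ ends did not separate these cell types.

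Islands were grouped as promoter (touching the 5′ end of a protein-coding gene), intragenic (otherwise touching such a gene) or intergenic. In the IκBα-KO libraries less H3K4me1 sequence was in the promoter class and more in the intragenic class, while the density of reads within the islands hardly differed. That density is taken over called sequence only. Sequence that lost its island no longer counted in it, so it does not measure such a loss. Promoter islands numbered 9083, 9094 and 9160 in the IκBα-WT libraries and 8114, 8173 and 8123 in the IκBα-KO libraries. They covered 113.1, 114.7 and 115.7 Mb against 100.9, 96.2 and 91.3 Mb. No IκBα-KO library reached the lowest IκBα-WT library by either measure. Islands were also shorter over all classes, with a median of 4200 bp in each IκBα-WT library and 4000, 3800 and 3600 bp in the IκBα-KO libraries. Merged promoter regions called in all 6 libraries held a mean of 1.76 islands in IκBα-WT and 1.89 in IκBα-KO libraries. Intragenic islands covered 242.0, 242.8 and 240.9 Mb in the IκBα-WT and 258.6, 259.3 and 260.2 Mb in the IκBα-KO libraries, again without overlap. An island that is interrupted at a 5′ end leaves its parts to the other classes, so the class totals depend on the 5′ ends described below. Intergenic islands covered 125.7, 125.4 and 125.7 Mb and 119.0, 120.0 and 119.7 Mb.

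As a share of the reads in islands, the promoter class went from 27.1% ± 0.278 to 23.1% ± 0.991, the intragenic class from 48.1% ± 0.275 to 53.0% ± 0.738 and the intergenic class from 24.8% ± 0.0828 to 23.8% ± 0.265 (SD, n = 3 each; exact permutation test, two-sided, p = 0.1 for each). With 3 libraries against 3 this test cannot give a p below 0.1. ChIP reads per kb were 84.7, 84.1 and 84.1 in IκBα-WT against 84.5, 84.4 and 83.6 in IκBα-KO promoter islands, which overlapped (difference −0.11, exact p = 0.8). They were 71.2, 70.9 and 70.4 against 71.6, 71.5 and 71.3 in intragenic islands (difference 0.67, exact p = 0.1), and 70.7, 70.4 and 70.2 against 69.9, 69.7 and 69.3 in intergenic islands (difference −0.81, exact p = 0.1). Both of these differences were near 1% of the level, and both changed sign under other settings. Counting the 5′ ends of all transcripts of all genes, the share of reads in the promoter class differed by 0.10 percentage points in the other direction. A smaller share of cells carrying the mark and less of it per cell cannot be told apart in such data.

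**Figure D1:**
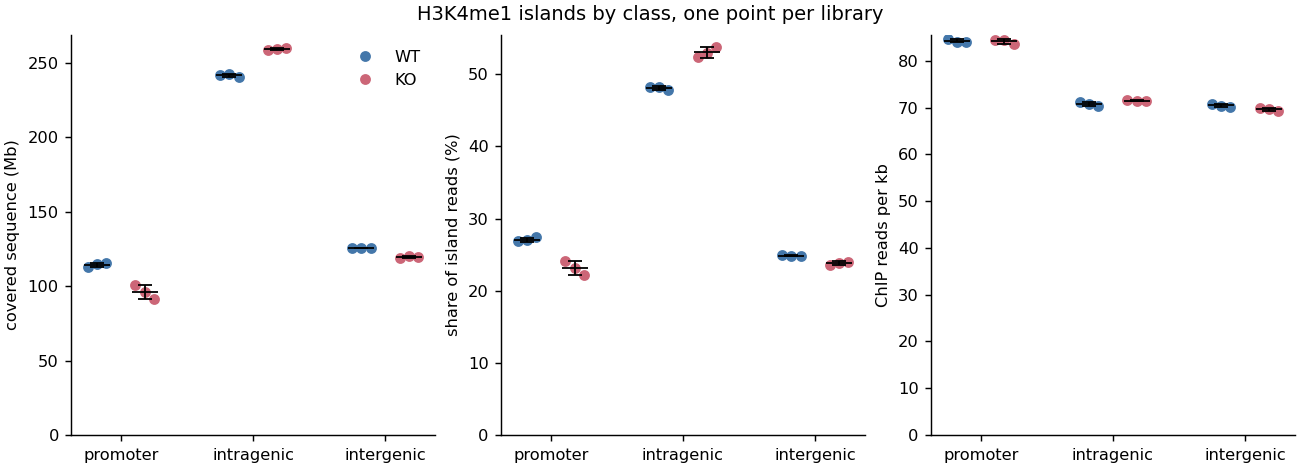
H3K4me1 islands of the promoter, intragenic and intergenic class in IκBα-WT (blue) and IκBα-KO (red) libraries, as covered sequence in Mb, share of the reads in islands in percent, and ChIP reads per kb. Points are libraries and bars the mean ± SD (n = 3): promoter coverage lay between 113.1 and 115.7 Mb in the IκBα-WT and between 91.3 and 100.9 Mb in the IκBα-KO libraries, while reads per kb lay at 83.6 to 84.7 in both.

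Coverage also differed at the 5′ end itself. Of 20807 protein-coding genes, 10650, 10653 and 10725 had their 5′ end under an H3K4me1 island in the IκBα-WT libraries and 9295, 9391 and 9292 in the IκBα-KO libraries, or 51.3% ± 0.204 against 44.8% ± 0.271 (SD, n = 3 each, exact p = 0.1). Of the 3 gene classes below, the difference was widest at genes with H3K4me3 and without H3K27me3 within 1000 bp, the usual state of active genes (6775 genes, by the consensus of each mark, called in at least 2 of 3 libraries). There 47.0%, 46.5% and 46.7% of 5′ ends were covered in the IκBα-WT libraries and 32.4%, 33.2% and 32.2% in the IκBα-KO libraries. At 4473 genes with both H3K4me3 and H3K27me3, the state called bivalent, the values were 88.8%, 89.2% and 89.4% against 84.0%, 84.3% and 84.0%. At 8392 genes without H3K4me3 they were 30.1%, 30.3% and 30.7% against 29.1%, 29.5% and 29.4%. The groups did not overlap in any of these classes (exact p = 0.1 in each), and the difference was −14.2 percentage points in the H3K4me3-only class and −1.01 in the class without H3K4me3.

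Farther out the genotypes came together in this class. In the H3K4me3-only class, H3K4me1 covered the position 2000 bp downstream at 93.7% to 93.9% of genes in the IκBα-WT and 93.9% to 94.2% in the IκBα-KO libraries (exact p = 0.3), and the position 2000 bp upstream at 75.5% to 75.9% and 75.4% to 77.1% (exact p = 0.4). The ranges overlapped at both positions. They did not in the bivalent class, with means of 61.2% against 56.8% upstream and 83.2% against 80.4% downstream. At 1000 bp downstream in the H3K4me3-only class they did not either, with 87.7% to 88.0% against 80.8% to 81.8%. H3K27ac islands, called against the same inputs, covered 97.3% to 97.6% of the same 5′ ends in IκBα-WT and 96.0% to 96.9% in IκBα-KO libraries, a difference of −0.94 points from a level that leaves little room above it. In the bivalent class H3K27ac coverage went from a mean of 72.3% to 66.8% (difference −5.55 points, exact p = 0.1), beside −5.02 for H3K4me1.

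**Figure D2:**
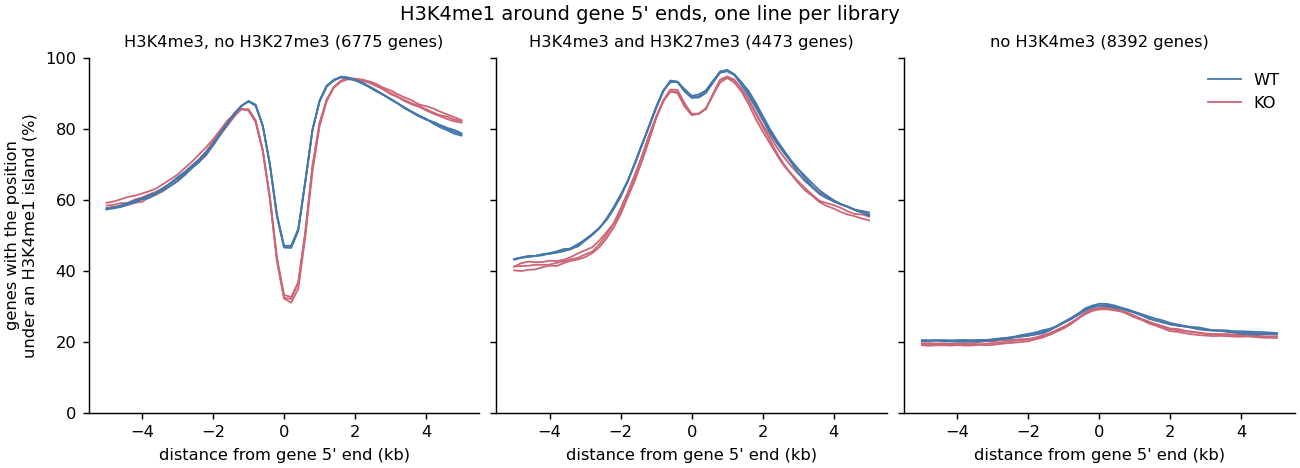
Share of genes, in percent, whose position at each distance from the 5′ end (x axis, kb, upstream to the left) lay under an H3K4me1 island, 1 line per library, IκBα-WT in blue and IκBα-KO in red, for genes with H3K4me3 and no H3K27me3 (6775), with both (4473) and without H3K4me3 (8392). At the 5′ end in the left panel the IκBα-WT libraries lay at 46.5% to 47.0% and the IκBα-KO libraries at 32.2% to 33.2%, and the ranges overlapped 2000 bp to either side.

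The valley was also wider where it existed in both genotypes. At 1740 genes of the H3K4me3-only class whose 5′ end no library covered and whose flanks at 2000 bp all 6 covered, the mean distance between the islands on either side was 1248, 1254 and 1251 bp in the IκBα-WT libraries and 1448, 1458 and 1480 bp in the IκBα-KO libraries (difference 211 bp, exact p = 0.1). All 3 IκBα-KO gaps were wider than all 3 IκBα-WT gaps at 340 of these genes (19.5%), and the converse held at 0 of them (0%). Over all 6775 genes, H3K4me1 covered 3102, 3099 and 3100 bp of the 4001 bp around the 5′ end in the IκBα-WT libraries and 2869, 2871 and 2844 bp in the IκBα-KO libraries. H3K4me3 peaks covered 1432, 1403 and 1470 bp of the same windows in IκBα-WT and 1536 to 1691 bp in IκBα-KO libraries (exact p = 0.1). On average over these genes, the called H3K4me3 was thus wider and the called H3K4me1 narrower in IκBα-KO. The marks were not compared gene by gene. Whether one bears on the other was not tested.

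Read gene by gene, 269 of the 20807 5′ ends (1.29%) were under an island in all 3 IκBα-WT libraries and in 0 of 3 IκBα-KO libraries, and 23 (0.111%) the other way round. Of the 269, 22 lay in the shifted segments, and of the 23, 11 did. Among the 269, 84.4% had H3K4me3 in both genotypes, 82.2% had H3K27ac in both and 76.2% had a ratio of observed to expected CpG above 0.6 within 500 bp, as CpG island promoters do. Among the 7655 5′ ends that all 6 libraries covered, 66.5% had H3K4me3 in both and 69.4% had H3K27ac in both. In this group 69.6% had H3K27me3 in either genotype and 42.5% exceeded that CpG ratio. Over all 20807 genes, 11799 had H3K4me3 in both. H3K27me3 in either genotype was at 27.9% of the 269. The lost 5′ ends were thus mostly CpG-rich and marked by H3K4me3 and H3K27ac, as were the 4516 with other mixed patterns. Of those 4516, 70.1% exceeded the CpG ratio, 78.7% had H3K4me3 in both and 79.6% had H3K27ac in both.

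Outside the segments, 124 of the lost 5′ ends kept H3K4me1 at 2000 bp on both sides in all 6 libraries. The widest gaps among them were at Gm20604, just outside the chromosome 12 segment (2000, 1800 and 2400 bp in the 3 IκBα-KO libraries), Mex3a, an RNA-binding ubiquitin ligase (2200, 1800 and 2000 bp), Fmc1, an assembly factor of the mitochondrial ATP synthase (2200, 1200 and 2200 bp), and Atf6, a transcription factor of the unfolded protein response (2000, 1200 and 2000 bp). They were followed by Bckdha, a subunit of the branched-chain keto acid dehydrogenase (1600, 1400 and 1800 bp), Nlgn2, a synaptic adhesion protein (1600, 1800 and 1400 bp), and Trim33, a ubiquitin ligase of TGFβ signalling (1600, 1800 and 1400 bp). Kat2b, a histone acetyltransferase, had gaps of 1200, 1400 and 1600 bp and Epop, a PRC2-associated protein, of 1000, 1400 and 1600 bp. H3K4me3 and H3K27ac were called at all 9 in both genotypes. These genes were chosen by gap width after the values were seen.

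To show the base composition of such 5′ ends, the 250 bases upstream of the start are given for the 4 lost 5′ ends with the widest gaps whose RefSeq start lay within 200 bp of the one used here, and for Nnat, which gained H3K4me1. CpG dinucleotides are in capitals. Of the 124 genes, 96 had an entry in the RefSeq promoter table (GRCm38.p6). Nlgn2 lies at chr11:69837785-69838034, minus strand, Kat2b at chr17:53566721-53566970, plus strand, Pym1, an exon-junction complex recycling factor, at chr10:128747629-128747878, plus strand, Dclk2, a microtubule-associated kinase, at chr3:86920885-86921134, minus strand, and Nnat at chr2:157559828-157560077, plus strand.
Nlgn2: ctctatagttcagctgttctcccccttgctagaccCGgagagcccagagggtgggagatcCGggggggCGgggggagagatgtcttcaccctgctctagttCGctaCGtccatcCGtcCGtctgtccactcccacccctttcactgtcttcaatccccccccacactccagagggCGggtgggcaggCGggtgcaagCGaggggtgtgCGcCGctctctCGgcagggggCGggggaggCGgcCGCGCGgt
Kat2b: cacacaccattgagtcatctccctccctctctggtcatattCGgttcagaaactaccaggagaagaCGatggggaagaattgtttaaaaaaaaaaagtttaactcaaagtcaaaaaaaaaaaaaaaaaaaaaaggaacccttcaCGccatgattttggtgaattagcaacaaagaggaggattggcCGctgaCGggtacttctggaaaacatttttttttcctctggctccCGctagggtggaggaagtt
Pym1: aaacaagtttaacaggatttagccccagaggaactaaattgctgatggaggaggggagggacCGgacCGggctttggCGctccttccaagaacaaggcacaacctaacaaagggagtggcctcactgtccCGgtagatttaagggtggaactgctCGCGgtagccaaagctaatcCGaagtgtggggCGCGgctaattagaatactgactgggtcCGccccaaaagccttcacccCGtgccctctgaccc
Dclk2: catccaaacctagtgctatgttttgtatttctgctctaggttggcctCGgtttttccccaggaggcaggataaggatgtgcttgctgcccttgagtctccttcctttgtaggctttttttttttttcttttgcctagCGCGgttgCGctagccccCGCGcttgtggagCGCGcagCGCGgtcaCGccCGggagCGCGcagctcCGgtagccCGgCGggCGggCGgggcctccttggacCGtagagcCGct
Nnat: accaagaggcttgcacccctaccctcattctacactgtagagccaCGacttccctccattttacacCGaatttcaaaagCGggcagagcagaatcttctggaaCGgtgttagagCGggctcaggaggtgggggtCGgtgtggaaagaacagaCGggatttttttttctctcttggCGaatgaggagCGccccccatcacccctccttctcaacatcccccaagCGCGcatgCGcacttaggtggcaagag
CpGs numbered 18, 6, 11, 21 and 12 in these windows, at a GC content of 67.6%, 40.8%, 55.2%, 60.0% and 54.8%. Kat2b stood apart, with a run of adenines and the fewest CpGs.

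Coverage of the 5′ end was also counted over lists of developmental and chromatin genes. For the 13 neuroectoderm regulators, 39 of 39 pairs of gene and library were covered in each genotype. For mesendoderm regulators the count was 42 of 42 in IκBα-WT and 40 of 42 in IκBα-KO libraries, and for formative and primed epiblast genes 36 and 33 of 42. It was 40 and 32 of 51 for naive pluripotency regulators, 20 and 17 of 27 for core pluripotency genes, and 41 and 33 of 54 for NF-κB pathway genes. The H3K4 methyltransferase and demethylase genes had 14 and 6 of 51, PRC2 genes 16 and 12 of 33, and DNA methylation enzymes and cofactors 23 and 17 of 24. Ash2l, a core subunit of the H3K4 methyltransferase complexes, and Epop went from 3 of 3 to 0 of 3. Pou5f1, Stat3, Chuk and Tet2 went from 2 of 3 to 0 of 3, and Dnmt3b, Rela, Setd1b, Gata4 and, in the chromosome 12 segment, Tcl1 from 3 of 3 to 1 of 3. Over all genes the shares covered were 51.3% and 44.8%. Nfkbia, the targeted gene, had no island at its 5′ end in any of the 6 libraries, so H3K4me1 there did not check the genotype labels.

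To compare the density of H3K4me1 reads region by region, the islands of all libraries were merged into 67919 regions. A library's reads and length in a region were those of its own islands, so the libraries were not compared over identical sequence. Of the regions, 44031 were called in all 6. The 10855 whose covered length was alike (the shortest at least 0.8 of the longest) were tested with edgeR's quasi-likelihood test, with covered length as an offset and Benjamini-Hochberg adjustment, and called at an adjusted p below 0.05. Regions called in a single genotype could not enter this test. Of the 67919, 1432 were called in all 3 IκBα-WT libraries and in no IκBα-KO library, and 1002 the other way round. Among the tested regions, changes were widespread and small. There were 1791 regions higher in the IκBα-KO (16.5%) and 1375 lower (12.7%), none by more than 2-fold, with a median absolute log2 fold change of 0.18 among those called. Outside the 3 segments, 1490 of 10533 were higher and 1371 lower, and 9 of these differed by more than 0.5 on the log2 scale. The balance between the directions depends on the scaling: without trimmed-mean (TMM) scaling, 1285 were higher and 2436 lower, and the median of all regions went from −0.0045 to −0.039.

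The direction of change differed by class. Of 4104 intragenic regions 933 were higher (22.7%) and 440 lower (10.7%), and of 2950 intergenic regions 247 were higher (8.37%) and 451 lower (15.3%). Promoter regions lay between these, with 611 of 3801 higher (16.1%) and 484 lower (12.7%). Outside the segments 481 promoter regions were higher and 484 lower of 3671. Direction also went with width. Of 1707 regions under 5000 bp 44 were higher (2.58%) and 232 lower (13.6%), and of 1686 regions of 40000 bp and over 481 were higher (28.5%) and 233 lower (13.8%). Wide regions hold more reads, and the part of this in the trend was not tested.

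**Figure D3:**
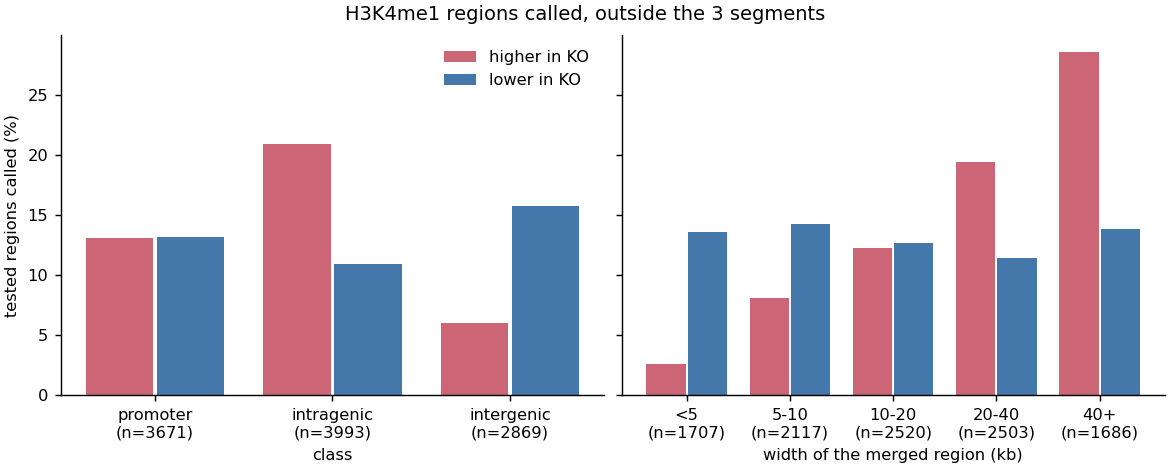
Percent of tested H3K4me1 regions outside the 3 segments called higher (red) or lower (blue) in IκBα-KO, by class and by width of the merged region in kb, with the number tested under each bar pair. Higher calls went from 2.58% of the regions under 5 kb to 28.5% of those of 40 kb and over, while lower calls stayed between 11.4% and 14.2%.

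The other marks at these regions divided them further. H3K27ac was assigned to a region where its consensus lay within 1000 bp, and the other marks where their consensus overlapped the region itself. Intragenic regions with H3K4me3 in both genotypes were higher in 550 of 1717 cases (32.0%) and lower in 127 (7.40%), and those without H3K4me3 were higher in 256 of 2074 (12.3%) and lower in 285 (13.7%). The former were wider, with a median of 21200 bp against 10000 bp, and the part of width in this difference was not tested. By H3K27ac, 81 intragenic regions had it in the IκBα-WT consensus only, and 31 of these (38.3%) had lower H3K4me1 and 1 higher. Of 115 intergenic regions with H3K27ac in IκBα-WT only, 35 (30.4%) were lower and 0 higher. Where H3K27ac was in the IκBα-KO consensus only, 10 of 81 intragenic and 9 of 68 intergenic regions were higher, and 3 of each were lower, and of 23 promoter regions 1 was higher and 3 were lower. The shares higher, 12.3%, 13.2% and 4.35%, stand beside 20.9%, 6.03% and 13.1% of all tested regions of these classes outside the segments. The shares lower among regions with H3K27ac in IκBα-WT only, 38.3% and 30.4%, stand beside 10.9% and 15.7%, and in the promoter class 11 of 70 were lower (15.7%), beside 13.2%. Mean H3K4me1 was 71.6 against 64.5 reads per kb at the intragenic regions with H3K27ac in IκBα-WT only. Both marks were called against the same inputs.

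Regions without H3K27ac in either genotype were seldom called higher, in 8 of 263 intragenic, 7 of 320 intergenic and 1 of 174 promoter regions. Lower calls numbered 37, 50 and 20. The shares lower were 14.1%, 15.6% and 11.5%, beside 10.9%, 15.7% and 13.2% of all tested regions of the class outside the segments, and the shares higher 3.04%, 2.19% and 0.575%, beside 20.9%, 6.03% and 13.1%. The regions without H3K27ac were narrow, with medians of 3600, 3200 and 3600 bp in the intragenic, intergenic and promoter class. Of all tested regions under 5000 bp outside the segments, 2.58% were higher and 13.6% lower, and the part of width was not tested. The study called H3K4me1 without H3K27ac peaks a putative poised enhancer. For changed ones it asked only about the IκBα-KO consensus, so regions with H3K27ac in IκBα-WT only could also qualify. It tested intervals around peak summits, not whole islands. Promoter regions with H3K27me3 in both genotypes were lower in 366 of 2285 cases (16.0%) and higher in 230 (10.1%), and those without H3K27me3 were lower in 94 of 1120 (8.39%) and higher in 208 (18.6%).

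By sequence, intragenic regions called higher had a median GC content of 43.0% against 45.5% for those lower and 45.3% for those not called, and promoter regions 47.0% against 49.6% and 48.7%. For the regions outside the segments, 3 motifs and a consensus were counted on both strands: TCAAGGTCA, bound by Esrrb, ATGCAAAT, the octamer of Oct4, CCACACCC, bound by Krüppel-like factors, and the NF-κB consensus. In intergenic regions TCAAGGTCA occurred 51.6 times per Mb in those higher, 34.6 in those lower and 43.2 in those not called, and was present in 48.6%, 24.8% and 31.7% of them (31.6% of all intergenic regions), at median widths of 11600, 7800 and 7200 bp. It occurred 38.1, 37.7 and 38.9 times per Mb in the promoter and 33.5, 30.9 and 34.8 in the intragenic regions, so those higher did not exceed those not called there. The NF-κB consensus occurred 177, 258 and 234 times per Mb in the intragenic and 268, 396 and 330 in the promoter regions, in the same order, and the order was reversed in the intergenic regions, at 292, 246 and 261. It is a GC-rich motif, present in 92.4%, 77.4% and 69.2% of all promoter, intragenic and intergenic regions, and the regions differ in GC content. The octamer and CCACACCC differed less between intergenic classes, at 58.8, 64.6 and 65.5 and at 115, 115 and 118 per Mb.

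The regions that rose most outside the segments included imprinted loci. Nnat, the paternally expressed gene of neuronatin, rose most among promoter regions (chr2:157539201-157565800), from 49.2, 51.8 and 51.8 TMM-scaled reads per kb in the IκBα-WT libraries to 75.9, 78.8 and 81.0 in the IκBα-KO libraries. The genotypes were far apart (log2 fold change 0.62 ± 0.04 SE, edgeR adjusted p = 2e-14), and input was level at 32.6 and 31.0 reads per kb. The 5′ end of Nnat was also among the 23 gained, so the islands of its region did not cover the same sequence in the genotypes. The intragenic region with the largest rise was in Kcnq1, a potassium channel gene (chr7:143243601-143295200, with coding exons), from 61.1, 60.3 and 58.0 to 95.04, 97.0 and 97.9 (0.69 ± 0.03, adjusted p = 1.5e-21). It ended 1349 bp from the 5′ end of Kcnq1ot1, the imprinted antisense RNA of that domain. The next was in Gnas, the gene of the stimulatory G protein α subunit (chr2:174295201-174302800), from 86.8, 76.9 and 77.1 to 121.9, 107.4 and 120.3 (0.54 ± 0.06, adjusted p = 8.1e-09), and held the 5′ end of the imprinted antisense RNA Nespas. The consensus of H3K9me3 overlapped the Nnat and Gnas regions in IκBα-WT and not in IκBα-KO, and the Kcnq1 region in both.

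The other 5 promoter regions named for the largest rises did so by 0.32 to 0.41 on the log2 scale, beside a median absolute change of 0.14 over the called promoter regions outside the segments. Arhgap32, a GTPase-activating protein (chr9:32108001-32120600), had 56.2 to 56.9 reads per kb in the IκBα-WT and 72.5 to 78.0 in the IκBα-KO libraries. Slc39a14, a zinc transporter (chr14:70302001-70357000), had 74.7 to 79.9 and 95.6 to 101.6. H3K27ac islands touching it had 57.3 to 62.3 and 74.5 to 87.7 reads per kb. Spred1, an inhibitor of Ras signalling (chr2:117118401-117165200), had 57.6 to 58.2 and 71.7 to 74.8 in H3K4me1. H3K27ac in the islands touching it was lower in IκBα-KO, at 90.6 to 97.7 and 51.2 to 74.1 reads per kb. H3K27ac values here and below are reads per kb of the whole H3K27ac islands that touch the region. They were not scaled between libraries, unlike those of H3K4me1. In these unlike measures the marks had the same direction at Slc39a14 and opposite directions at Spred1. Arpp19, a phosphatase inhibitor of mitosis, and the shared region of Mcm3ap and Ybey rose by 0.33 and 0.32, with input 0.18 higher on the log2 scale at Arpp19. The islands at Arpp19 covered 21400 to 22800 bp in the IκBα-WT and 19400 to 20400 bp in the IκBα-KO libraries. Under other settings its rise was as low as 0.17.

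Among the promoter regions named for the largest falls, 4930452B06Rik (chr14:8665401-8680000) went from 73.1, 77.1 and 78.3 to 55.8, 57.8 and 57.7 reads per kb (log2 fold change −0.42 ± 0.05, edgeR adjusted p = 3.4e-08). Dusp26, a protein phosphatase (chr8:31088801-31092400), went from 96.9, 97.6 and 92.1 to 72.8, 78.3 and 70.0 (−0.38), but its input also went from 27.04 to 19.1 reads per kb. Svopl, Trim21 and Rassf6 fell by 0.37, 0.36 and 0.36, and input at Rassf6 went from 30.8 to 23.6. Over all tested regions outside the segments the log2 input difference had a median of −0.053 and an SD of 0.14, and its part in these falls was not tested. Trim21 missed the threshold with DESeq2 (adjusted p = 0.051).

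Among the intragenic regions that fell was one in Klf4, a naive pluripotency factor. It (chr4:55528001-55532200) covered coding exons and lay 266 bp from the 5′ end. H3K4me1 went from 94.5, 94.8 and 95.2 reads per kb in IκBα-WT to 69.1, 66.7 and 73.1 in IκBα-KO libraries (log2 fold change −0.45 ± 0.07, edgeR adjusted p = 3.9e-06), with input at 31.6 and 26.2. Unscaled H3K27ac in the islands touching this region was 68.7 to 79.1 and 75.9 to 87.8 reads per kb, which overlapped. Ubald2 (chr11:116435001-116438200), whose region lay 907 bp from the 5′ end, also fell without a fall in unscaled H3K27ac. H3K4me1 there went from 126.7, 131.5 and 132.4 to 87.1, 87.9 and 88.5 (−0.57 ± 0.07, edgeR adjusted p = 2.1e-08). Unscaled H3K27ac was 103.2 to 120.4 and 110.5 to 138.7, and input was 38.2 and 32.1. Ccdc138 fell by 0.52 with unscaled H3K27ac lower as well, at 81.9 to 101.0 and 57.3 to 73.2. An intron of Wnk2, a kinase, and coding sequence of Igsf11, an adhesion molecule, fell by 0.56 and 0.45. Rises were found in an intron of Zfp704 (0.47), in Xpo6, an exportin of actin (0.46), and in an intron of Tm9sf2 (0.45).

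Of the intergenic regions, the lowest was 7652 bp from 4930435E12Rik (chr16:38836401-38838200), from 83.7, 100.9 and 105.6 to 59.8, 56.8 and 61.2 reads per kb (log2 fold change −0.70 ± 0.11, edgeR adjusted p = 4.5e-06), with input at 37.7 and 30.2. H3K27ac was called there in all 3 IκBα-WT libraries, at 86.2 to 97.1 reads per kb, and in no IκBα-KO library. The Igsf11 region (chr16:38901001-38906600) also had H3K27ac in the IκBα-WT libraries alone. A region 52661 bp from Btc, an EGF family ligand (chr5:91301401-91304600), fell by 0.53, and a region 167637 bp from Shisa6 fell by 0.49 while its input went from 34.4 to 23.9. Rises were found 52446 bp from Akap11 (chr14:78436001-78439800), from 70.3, 75.0 and 62.7 to 99.6, 96.3 and 106.0 (0.54 ± 0.08, adjusted p = 1.1e-06), where H3K27ac was called in the 3 IκBα-KO libraries, at 39.5 to 48.8 reads per kb, and in no IκBα-WT library. The other rises were 114897 bp from Rpap3 (0.46) and 96193 bp from Vegfa, the vascular growth factor (0.46).

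**Figure D4:**
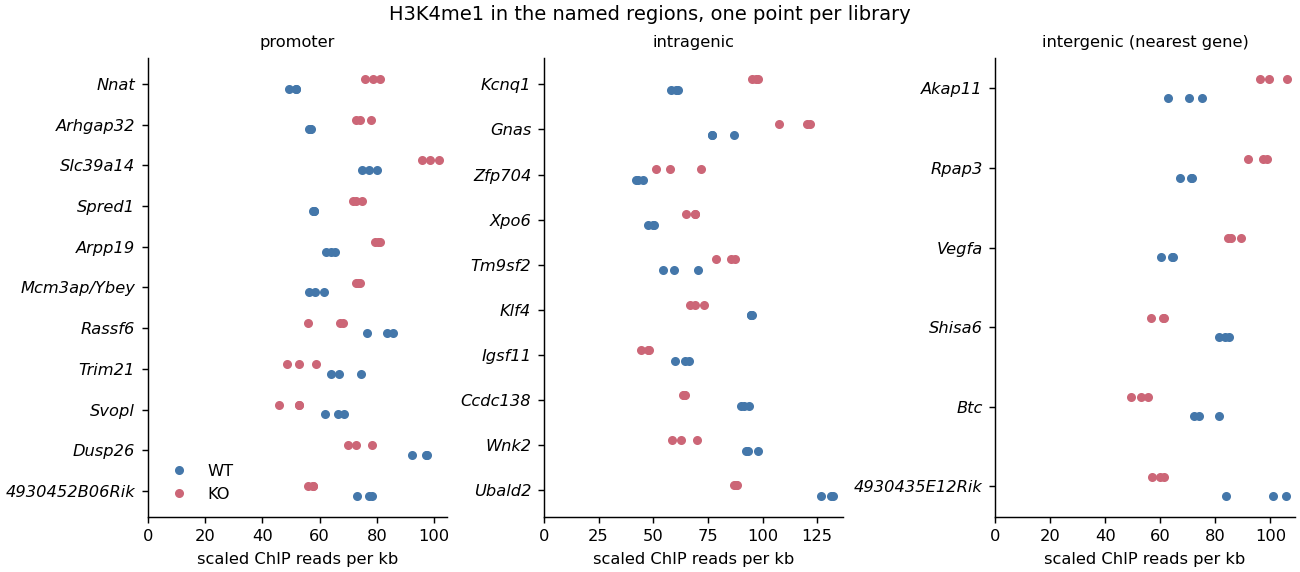
TMM-scaled H3K4me1 ChIP reads per kb (x axis) in the regions described above, among those with the largest called changes outside the 3 segments, by class, 1 point per library, IκBα-WT in blue and IκBα-KO in red. The genotypes do not overlap in any region shown, which was a condition for naming it, and Kcnq1 has the largest log2 fold change of those that rose, with 58.0 to 61.1 in IκBα-WT and 95.04 to 97.9 in IκBα-KO.

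The tested regions that held the 5′ ends of the listed developmental and chromatin genes had log2 fold changes between −0.18 and 0.16 outside the segments. They are not ranked against the regions above, which were picked for large changes. Their counts are read against 16.1% higher and 12.7% lower over all promoter regions, with a median of −0.0018. Each value covers a library's islands over the whole merged region and not the 5′ end alone. At Socs3 that was 141800 bp of islands in the first IκBα-WT library. Of 11 tested neuroectoderm regulators 6 fell and 1 rose, with a median log2 fold change of −0.11. Pax6, an eye and neural regulator, went from 118.1, 118.9 and 118.3 reads per kb in IκBα-WT to 107.7, 108.0 and 110.1 in IκBα-KO libraries (log2 fold change −0.13 ± 0.03, edgeR adjusted p = 0.00022). Otx1, a forebrain regulator, had 122.3 to 124.2 and 106.9 to 110.0 (−0.18 ± 0.04, adjusted p = 0.00035). Olig2, a motor neuron and oligodendrocyte factor, had 110.5 to 115.1 and 96.9 to 103.6 (−0.18, adjusted p = 0.0012), and Pax3, a neural crest regulator, 92.3 to 96.6 and 80.9 to 86.0 (−0.17, adjusted p = 0.0023). Nes and Neurog1 fell by 0.11 and 0.12, and each lost its call without some of the libraries. The 1 that rose, Irx3 (0.34), lay in the chromosome 8 segment, where its input was 0.60 higher on the log2 scale. All 6 that fell kept an island over their 5′ end in every library.

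Of 11 tested naive pluripotency regulators 3 rose and 1 fell, with a median of 0.047. Klf2 rose, with 85.0 to 88.2 and 130.6 to 130.9 reads per kb (0.60), but lay in the chromosome 8 segment with an input shift of 0.55. Outside the segments Stat3, which transmits the LIF signal, rose from 65.0, 68.8 and 68.4 to 73.1, 74.7 and 71.7 (0.12 ± 0.03, edgeR adjusted p = 0.0084), and Nr5a2, a nuclear receptor of the naive network, by 0.050. Gbx2, a LIF target, fell by 0.085. Esrrb had a log2 fold change of 0.16 ± 0.06 with an adjusted p of 0.052. Of 5 core pluripotency genes, Sall4 rose by 0.37 in the chromosome 2 segment (input shift 0.42), Dppa2 rose by 0.090 and Pou5f1, the gene of Oct4, fell, with 103.0 to 104.3 and 98.0 to 99.7 (−0.065 ± 0.019, adjusted p = 0.0091) in a region that holds 5 gene 5′ ends. Stat3, Nr5a2, Gbx2 and Dppa2 each lost the call under some other setting, among them leaving out the first IκBα-WT library for Stat3.

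Of 10 formative and primed epiblast genes 1 fell and 0 rose (median −0.059). It was Dnmt3b, the de novo DNA methyltransferase of the epiblast, whose region (chr2:153591201-153674000) went from 99.2, 98.9 and 100.3 to 89.9, 88.9 and 89.4 reads per kb (−0.15 ± 0.02, edgeR adjusted p = 3.5e-08). Of 7 DNA methylation enzymes and cofactors, Dnmt3b fell and Tet1, which oxidises 5-methylcytosine, rose by 0.051 (adjusted p = 0.022; median −0.021). Of 5 mesendoderm regulators 1 fell, Evx1 by 0.14, and 0 rose (median −0.10). T and Foxa2, regulators of mesoderm and endoderm, had values of −0.10 each and were not called. Of 9 NF-κB pathway genes 2 fell and 0 rose (median −0.016): Nfkbib, the gene of IκBβ, with 87.7 to 92.6 and 81.9 to 84.4 (−0.11, adjusted p = 0.00035), and Nfkb2, the gene of p100, with 85.5 to 89.9 and 81.3 to 82.7 (−0.11, adjusted p = 0.0028). The region of Nfkbib holds 7 and that of Nfkb2 6 gene 5′ ends. Tet1, Evx1 and Nfkb2 each lost the call under some other setting. Genes whose region was of unequal length were read from the fit over all 44031 regions, where Tfcp2l1 was higher (0.11, adjusted p = 0.037) and Lin28a (−0.17, adjusted p = 0.011), Lef1 (−0.16, adjusted p = 0.0025) and, in the chromosome 12 segment, Tcl1 and Gsc were lower. Rela and Icam1 had values of −0.030 and −0.016 and were not called.

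Of 6 H3K4 methyltransferase and demethylase genes 2 fell, Kmt2d, the enhancer H3K4 monomethyltransferase, by 0.050 and Pagr1a, a subunit of its complex, by 0.089, and 0 rose (median −0.042). Their adjusted p were 0.049 and 0.021, and each lost its call under some other setting. The Kmt2d, Pagr1a and Phf1 regions hold 4, 5 and 5 gene 5′ ends. Of 5 PRC2 genes, Phf1 fell by 0.10 and 0 rose (median −0.066). Input over Kmt2d, Pagr1a and Phf1 was also lower in IκBα-KO, by 0.22, 0.19 and 0.15. Among the marker lists, 1 of 2 tested fibroblast markers rose, Pdgfrb by 0.22, with 74.4 to 77.3 and 88.7 to 89.3 reads per kb. Of 3 tested mESC markers 1 fell (Pou5f1). The only tested lymphocyte marker, Cd79a, had a value of −0.055 and was not called, and 0 hepatocyte markers could be tested.

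**Figure D5:**
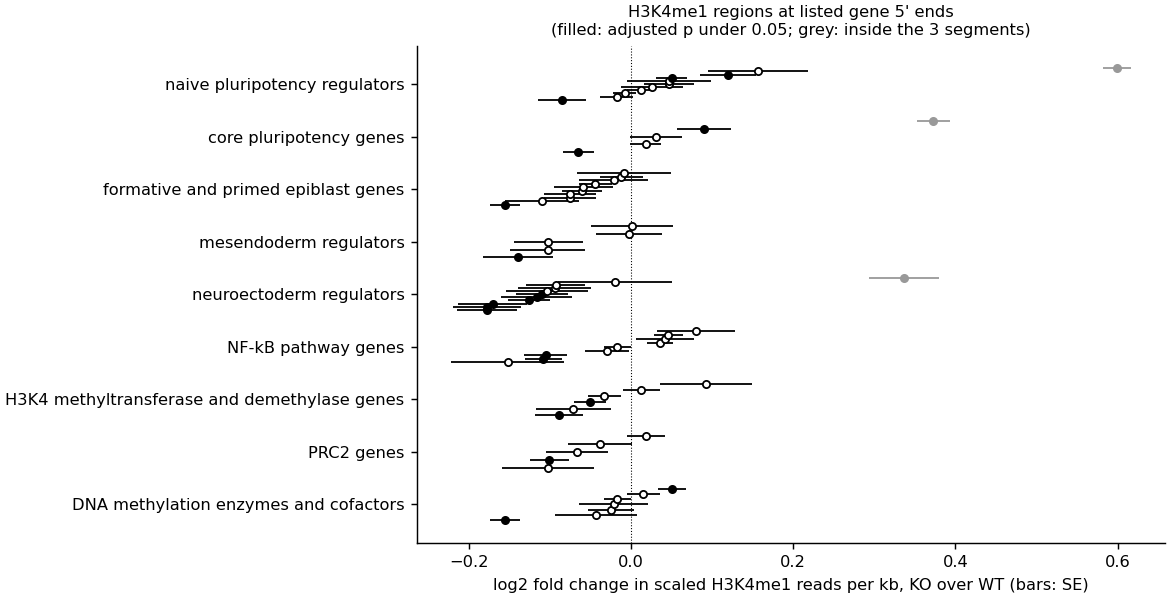
Log2 fold change (x axis, IκBα-KO over IκBα-WT, bars SE) of TMM-scaled H3K4me1 reads per kb in the tested regions at the 5′ ends of listed genes, 1 point per gene, filled where the adjusted p was below 0.05 and grey inside the 3 segments. Outside the segments the points of these 9 lists lie between −0.18 and 0.16, and the 10 neuroectoderm regulators there lie below 0.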

How the data were processed

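H3K4me1 ChIP-seq was available for 3 IκBα-WT and 3 IκBα-KO libraries, grouped by their GEO labels. According to the labels and the study's methods, the authors trimmed reads with Trim Galore 0.6.6, aligned them to GRCm38 with Bowtie2 2.4.4, and called islands per library against 1 input per genotype with epic2 (the submitters' processing notes list SICER 0.0.52). The deposited lists gave whole-number read counts (ChIP and input) per island, and an FDR (q-value) that the authors' caller computed. Lists of H3K27ac, H3K27me3 and H3K9me3 islands and the deposited H3K4me3 peaks (MACS2 2.2.7.1) were used too. Other columns were not used. At islands with the same limits the input count was equal in every IκBα-KO pair of libraries (3659 of 3659, 3768 of 3768 and 3885 of 3885) but in 2828 of 3666, 2520 of 3602 and 3167 of 3539 in IκBα-WT pairs.

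Islands on chromosomes 1 to 19 were classed with the 5′ ends of 20807 protein-coding genes (GENCODE M21) and merged across libraries. The consensus of a mark was what 2 or more libraries of a genotype called. Regions called in all 6, with a length ratio of at least 0.8, were tested with edgeR 4.0.16 (R 4.3.3; quasi-likelihood, TMM, covered length as offset), without a filter on low counts beyond being called. The script was tested on simulated data. Library totals were compared by exact permutation tests (20 assignments, two-sided). Python 3.11.15 with numpy 2.4.6, pandas 2.3.3 and matplotlib 3.10.9 was used for the rest.

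Named regions had a mean of at least 100 ChIP reads per library, an adjusted p below 0.05, no overlap between genotypes, the same direction without the length offset, and lay outside the 3 segments: the 6 largest in each direction for promoters, 5 for intragenic and 3 for intergenic regions, with Nfkbia and up to 4 called members of each gene list (further members named above were chosen after their values were seen). Of the promoter regions so chosen, 1 is not reported here. The comparison, gene lists and segments were chosen with earlier results of these data known, and the 5′ end coverage, gap width and imprinted loci after these data were seen.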

Additional observations from a re-analysis of the deposited data

How the results depend on the processing

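Reads per kb in promoter islands changed sign when scaled to the reads in islands (0.042) and as ChIP over input (0.0077), and ranged from −0.28 to 0.17 when each library was left out in turn. The intragenic difference turned to −0.21 with all transcripts of all genes and −0.12 without the 3 segments, and the intergenic one to 0.015 when scaled to the reads in islands. The share of reads in promoter islands turned to 0.10 with all transcripts. With a window from 5000 bp upstream to 100 bp downstream, promoter islands differed by 204 and intergenic islands by −305; the latter ranged from −226 to 1136 over the left-out libraries. The fall in covered 5′ ends (−1350) kept its direction in every alternative, all added after seeing the data: −1346 at an FDR under 0.001, −1343 without the segments, −1383 to −1326 with each library left out, −1193 and −333 with gaps of up to 1000 and 2000 bp closed, and −5384 for all transcripts. Region calls (3166) fell to 668 of 1186 regions at a length ratio of 0.95, where fewer regions were tested (promoter 254, intragenic 325, intergenic 89). Without the length offset promoter calls were 1750 and intergenic calls 1072, and DESeq2 1.42.0 gave 376 intergenic calls; the cause was not tested. Same-numbered libraries did not deviate together (correlations 0.0014, −0.026 and −0.024), so the numbers do not pair them, and a replicate block gave 3120 calls. Leaving out each library gave 2528 to 2677. Of 51 named and listed regions, none changed direction and 12 missed the threshold in at least 1 alternative. Groups of 3 were not tested for outlying samples.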

Other observations

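Imprinted loci were looked up after Nnat, Kcnq1 and Gnas had been seen to lead the rises, so the following values carry no test. H3K4me1 and H3K9me3, a mark of the methylated copy of imprinting control regions, were measured as the sequence called within 2000 bp of the 5′ end, 4001 bp in all. At H19, an imprinted non-coding RNA, H3K4me1 covered 0, 1258 and 0 bp in the IκBα-WT libraries and 4001 bp in each IκBα-KO library. At Peg13 it covered 0 bp in each IκBα-WT library and 4001, 3201 and 3201 bp in the IκBα-KO libraries, and at Nap1l5 0 bp and 2200, 2200 and 2000 bp. At Nnat it covered 678, 1478 and 1878 bp and 3878, 3878 and 4001 bp. H3K9me3 covered all 4001 bp at H19, Nap1l5 and Nnat in every IκBα-WT library and 0 bp in every IκBα-KO library, while at Peg13 it covered 4001 bp in all 6. H3K9me3 went from 4001 to 0 bp in the same way at Peg3, Peg10, Zrsr1, Mcts2, Airn, Kcnq1ot1 and Nespas. H3K4me1 covered 2431, 2631 and 2631 bp against 3431, 3431 and 2631 bp at Peg3, and 3001, 2801 and 3001 bp against 3001, 3001 and 2801 bp at Mcts2. The genotypes' ranges of H3K4me1 coverage overlapped or met at all 7 of these loci.

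H3K4me1 went the other way at Grb10, a growth-inhibiting adaptor gene, with 3518, 4001 and 4001 bp in the IκBα-WT and 1918, 2118 and 1918 bp in the IκBα-KO libraries. No H3K9me3 was called around that 5′ end in either genotype, and H3K4me3 peaks covered 1123, 986 and 1159 bp against 0, 314 and 254 bp.

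Besides Nnat and Nap1l5, the 5′ ends that gained H3K4me1 in all 3 IκBα-KO libraries outside the segments included Kctd18, Vwa5b1, Galnt11, Fat2 and Trim80. The distance between the islands on either side was 4400 to 294000 bp in the IκBα-WT libraries over the 12 such genes. Around Fat2 it was 12000, 12200 and 12000 bp and around Kctd18 17000, 16000 and 18200 bp.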
